A study of Mus musculus with 8 samples.

Results

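The genes described here are 48 genes of the cell division cycle, found by their symbols among the 18540 genes of a count table from mouse wound skin. They were split by role into 13 genes of DNA replication (S phase), 23 genes of mitosis, 8 genes of G1 and the G1/S transition, and 4 genes of cyclin-dependent kinase (CDK) inhibitors. RNA was sequenced from the skin of wounds in mice, in 4 control samples that had received PBS and 4 samples treated with Z1C2Z for 15 days. The study punched wounds 10 mm wide through the full skin of the back and injected the material around them at 100 µg/kg every 7 days. Z1C2Z is a composite of zinc peroxide and cerium dioxide nanoparticles on the zinc imidazole framework ZIF-8, with the higher ratio of cerium dioxide to zinc peroxide of the mixtures that the study made. The sample titles call the groups con and shiyan, and their numbers (1, 2, 3 and 5 in the controls, 1, 2, 4 and 5 in the treated group) match the study's sample names, from which the name Z1C2Z was taken. The strain, sex and age of the sequenced mice are not given in the sources used here, and the study worked both with C57BL and with diabetic db/db mice. It made 2 wounds in each animal and assigned wounds to groups, and no label says which samples came from separate animals, so p-values measure only the spread between these samples. The samples are whole tissue: fewer cells of a type and less RNA per cell cannot be told apart in them.

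A cell enters the cycle in G1, when growth signals raise D-type cyclins. Cyclin D with Cdk4 or Cdk6, and cyclin E with Cdk2, release E2F transcription factors from the retinoblastoma protein, and E2F then switches on the genes of DNA replication. Genes of mitosis are switched on later, in G2, from promoters with a CHR element and CCAAT boxes, and their products build the spindle and separate the chromosomes. In healing skin, dividing keratinocytes close the wound from its edges and from hair follicles, while fibroblasts, endothelial cells and leukocytes divide in the tissue below.

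The promoters of the replication and the mitosis genes carry different letters, shown here because the results below are given by the same split. RefSeq promoter windows (GRCm38.p6, from 250 bases before to 50 bases after the start) were found for 37 of the 48 genes, as 41 windows. The genes with no entry were Mcm4, Ccna2, Cdc25c, Aurkb, Kif20a, Tpx2, Foxm1, Ccnd1, Ccnd2, Ccne2 and Cdkn1c. All letters were searched on both strands. The CHR letters TTTGAA stood in 13 of 17 mitosis windows (76.5%), 2 of 13 replication windows (15.4%) and 17.9% of all 32851 windows. CCAAT stood in 16 of 17 mitosis windows (94.1%), 10 of 13 replication windows (76.9%) and 37.4% of all. Both together stood in 13 of 17 mitosis windows, against 6.95% of all. The E2F letters TTTCCCGC, TTTGGCGC, TTTCGCGC or TTTGCCGC stood in 6 of 13 replication windows (46.2%), in 1 of 17 mitosis windows (5.88%, that of Cdk1) and in 2.26% of all. TTTAAA stood in 7 of 17 mitosis windows (41.2%), 2 of 13 replication windows (15.4%) and 13.2% of all. TATAAA stood in 0 of 17 mitosis windows, 1 of 13 replication windows (7.69%) and 13.6% of all. Shares were different in the 15191 windows of genes tested for expression. There TTTGAA stood in 12.7%, CCAAT in 37.2% and both together in 5.06%. The E2F letters stood in 3.52%, TTTAAA in 9.58% and TATAAA in 8.62% of those windows. No G1 window (0 of 6) and no inhibitor window (0 of 5) held TTTGAA. A match describes letters, not a bound site.

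Windows of a pair of mitosis genes and a pair of replication genes are printed 5′ to 3′, with all of the letters named above except TATAAA in capitals wherever they stand on either strand. Ccnb1 encodes cyclin B1, the partner of Cdk1 in mitosis, and its window (chr13:100786437-100786736, minus strand) held CCAAT at −99 and −67 and TTTAAA at −42 from the start. Cdc20, the activator of the anaphase-promoting complex (chr4:118437294-118437593, minus strand), held TTTGAA at −18 and CCAAT at −53 and −8. Mcm5, a subunit of the MCM helicase that unwinds DNA (chr8:75109259-75109558, plus strand), held E2F letters at −153 and −149 that overlap each other, and CCAAT at −77, −22 and 7. The Mcm5 window also held TTTAAA at −221. Cdc6, which loads that helicase on origins (chr11:98907901-98908200, plus strand), held E2F letters at −138 on the other strand.
Ccnb1: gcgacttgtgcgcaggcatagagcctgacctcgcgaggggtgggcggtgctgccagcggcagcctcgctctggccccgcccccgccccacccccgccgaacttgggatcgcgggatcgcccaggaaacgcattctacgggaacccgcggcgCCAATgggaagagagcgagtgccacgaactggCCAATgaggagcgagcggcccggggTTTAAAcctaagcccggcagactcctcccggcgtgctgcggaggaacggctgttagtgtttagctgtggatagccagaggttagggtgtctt
Cdc20: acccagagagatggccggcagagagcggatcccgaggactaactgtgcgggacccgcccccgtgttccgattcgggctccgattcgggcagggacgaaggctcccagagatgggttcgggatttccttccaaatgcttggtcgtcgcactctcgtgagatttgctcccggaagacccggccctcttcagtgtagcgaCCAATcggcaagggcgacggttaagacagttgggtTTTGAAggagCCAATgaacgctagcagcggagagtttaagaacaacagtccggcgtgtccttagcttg
Mcm5: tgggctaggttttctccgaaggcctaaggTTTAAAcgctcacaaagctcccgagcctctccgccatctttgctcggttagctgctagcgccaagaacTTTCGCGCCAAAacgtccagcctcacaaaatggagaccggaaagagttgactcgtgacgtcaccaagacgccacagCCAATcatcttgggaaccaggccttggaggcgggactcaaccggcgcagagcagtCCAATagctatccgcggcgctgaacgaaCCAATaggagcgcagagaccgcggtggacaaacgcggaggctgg
Cdc6: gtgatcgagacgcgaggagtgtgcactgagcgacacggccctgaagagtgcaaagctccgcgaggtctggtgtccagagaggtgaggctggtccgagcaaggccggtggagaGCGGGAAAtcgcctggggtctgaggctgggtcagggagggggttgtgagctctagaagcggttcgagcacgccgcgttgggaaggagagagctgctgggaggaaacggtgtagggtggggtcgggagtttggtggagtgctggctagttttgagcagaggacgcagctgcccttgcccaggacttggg

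All 48 genes passed the filter on low counts and were tested among 15147 genes. Libraries held 28856790 to 38974888 counts. Levels are given as CPM, the reads of a gene scaled to a common library size with TMM factors, and differences as log2 fold changes of Z1C2Z over control from edgeR's quasi-likelihood test, with p adjusted by the Benjamini-Hochberg method over all genes tested. At an adjusted p under 0.05, 2 of the 48 genes (4.17%) were higher with Z1C2Z, Ccnd1 and Cdc25c, and 0 were lower. Over all genes tested, 4.28% were called higher and 3.85% lower (8.13% in all), so the share of called cell cycle genes was close to that of the whole table. None of the 48 passed with an absolute log2 fold change over 1, against 2.15% of all genes higher and 1.25% lower. At an unadjusted p under 0.05, 13 genes (27.1%) were higher and 1 (2.08%) was lower, against 12.8% and 15.2% of all genes. In 9 genes (18.8%) all 4 treated samples lay above all 4 controls and in 1 (2.08%) below, against 8.45% and 8.82% of all genes. The log2 fold change was over 0 in 40 of 48 (83.3%) and in 51.1% of all genes, and the medians were 0.12 and 0.01. Few of these differences passed the test one by one.

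**Figure D1:**
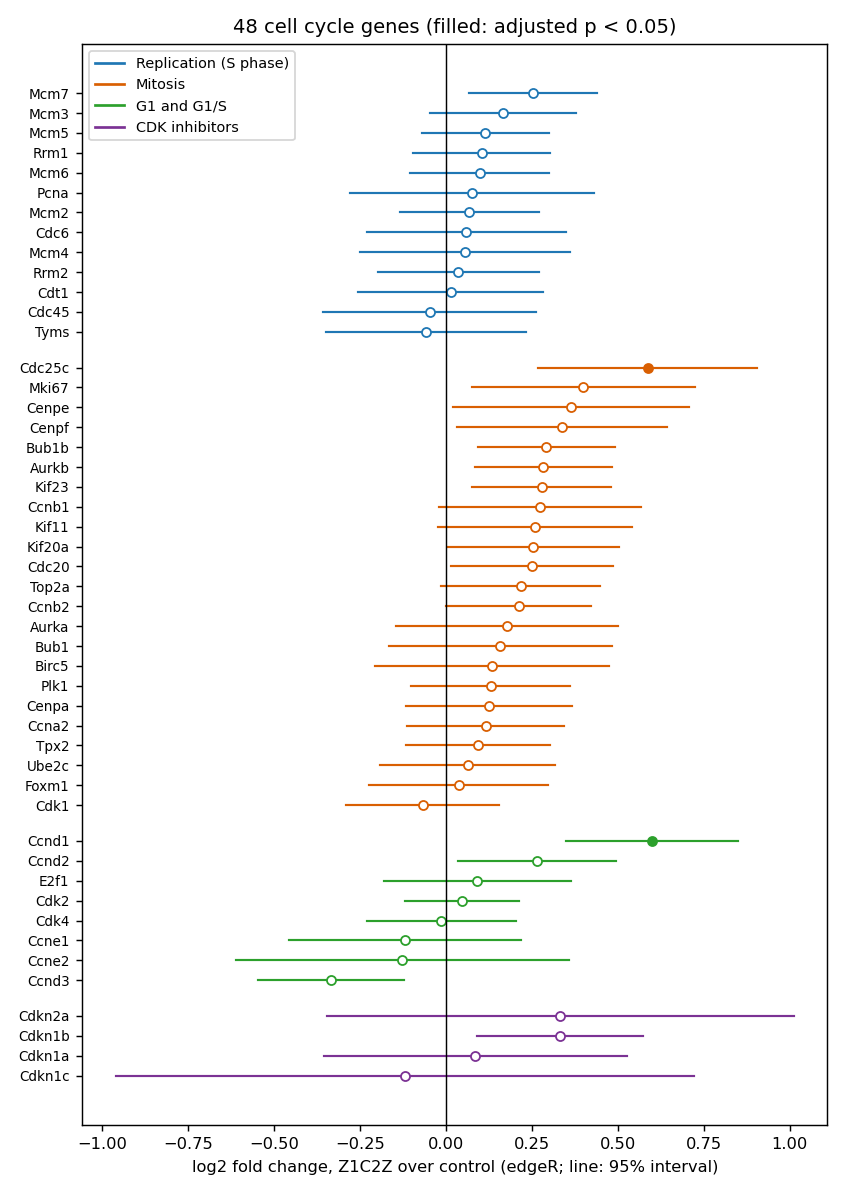
Log2 fold change of Z1C2Z over control (horizontal axis, log2 scale) for each of the 48 genes, grouped and coloured by role, where points are edgeR estimates, lines their 95% intervals and filled points an adjusted p under 0.05. Of the 23 mitosis genes 22 lie right of 0 and the 13 replication genes lie between −0.06 and 0.25, with Cdc25c (0.59) and Ccnd1 (0.60) the filled points.

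The calls depended on single libraries. When control-5 or any of the treated samples 1, 2 and 4 was left out, 0 of all genes in the table passed, and without control-2 the table held 25 higher and 98 lower genes in place of 648 and 583. It held 656 and 868 without control-1, 541 and 464 without control-3, and 886 and 859 without Z1C2Z-5. Each of these fits also had fewer samples. With DESeq2 on the same counts, 7 of the 48 genes (14.6%) were higher and 1 (2.08%) was lower, against 7.96% and 10.2% of all genes. Those were Ccnd1, Cdc25c, Mcm7, Bub1b, Aurkb, Kif23 and Cdkn1b in the higher direction and Ccnd3 in the lower. An exact permutation test over the 70 arrangements of the samples cannot go below p = 0.0286 for a gene. Any gene without overlap must have that value, so for the 10 such genes it adds nothing to the lack of overlap.

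No replication gene passed the test. Of the 13, 11 had a log2 fold change over 0, the median was 0.07 and the range −0.06 to 0.25. The median was 0.12 without control-1, 0.11 without Z1C2Z-2 and 0.03 without Z1C2Z-5. For 1 gene the unadjusted p was under 0.05 (7.69%, against the 12.8% of all genes). That gene was Mcm7, a helicase subunit, with 51.9, 53.5, 51.3 and 45.4 CPM in the controls (samples 1, 2, 3 and 5, the order used throughout) and 56.4, 61.0, 63.5 and 60.1 CPM in the treated samples (samples 1, 2, 4 and 5). Every treated sample was above every control, at a log2 fold change of 0.25 ± 0.08 (SE, n = 4 and 4), and edgeR's adjusted p was 0.0874.

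The other helicase subunits overlapped between groups. Mcm2 was at 36.9, 35.6, 34.4 and 34.3 CPM in the controls and 39.1, 34.6, 33.5 and 40.8 CPM in the treated samples, so that Z1C2Z-4 was the lowest of all 8. Mcm5 was at 42.8, 41.9, 37.0 and 40.5 CPM against 44.3, 40.7, 44.7 and 45.9 CPM, and differed by 0.11 ± 0.08 on the log2 scale (edgeR adjusted p = 0.391). Mcm3, the second largest difference of the list, reached 0.17 (edgeR adjusted p = 0.280), and Mcm4 and Mcm6 lay at 0.06 and 0.10.

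Pcna, the sliding clamp of DNA polymerases, had its highest value in a control. It was at 197, 133, 119 and 141 CPM in the controls and at 134, 171, 161 and 155 CPM in the treated samples, a mean of 147 ± 34.2 (SD, n = 4) against 155 ± 15.5 CPM. Rrm2, the small subunit of the enzyme that makes deoxyribonucleotides, was at 58.9, 58.1, 46.4 and 48.2 CPM against 54.8, 50.8, 52.8 and 58.5 CPM. The treated samples lay within the range of the controls. The 95% interval of the log2 fold change was −0.28 to 0.43 for Pcna and −0.20 to 0.27 for Rrm2, so differences within these bounds could not be told from 0. Rrm1, the large subunit of the same enzyme, was at 0.10, the origin licensing genes Cdc6 and Cdt1 at 0.06 and 0.01, the helicase cofactor Cdc45 at −0.05 and Tyms, which makes thymidylate, at −0.06.

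Of the mitosis genes 1 passed the test, and most of the others had small log2 fold changes over 0. The log2 fold change was over 0 in 22 of 23 (95.7%, against 51.1% of all genes), the median was 0.22 and the range −0.07 to 0.59. An unadjusted p under 0.05 was found for 9 (39.1%, against 12.8%), all higher, and 5 had no overlap (21.7%, against 8.45%). After adjustment the share that passed was 4.35%, against 4.28% of all genes. The genes are switched on together in dividing cells, so they are not independent of each other, and no test of the list was made.

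Cdc25c, the phosphatase that activates Cdk1 at the entry to mitosis, was the mitosis gene that rose. It was at 6.64, 6.97, 5.59 and 5.10 CPM in the controls and 8.74, 9.72, 9.69 and 8.35 CPM in the treated samples. The groups did not overlap, and the log2 fold change was 0.59 ± 0.14 (SE, n = 4 and 4, edgeR adjusted p = 0.0408). It rested on 181 to 386 counts per library. The adjusted p was 0.0617 without control-2, 0.0757 without control-3, 0.101 without control-5, 0.0754 without Z1C2Z-1, 0.118 without Z1C2Z-2 and 0.119 without Z1C2Z-4, with log2 fold changes of 0.52 to 0.66, and it was 0.00260 with DESeq2.

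Of the other mitosis genes, Bub1b, Aurkb, Kif23 and Ccnb2 separated the groups without passing the test. Bub1b, which encodes the checkpoint kinase BubR1, was at 31.5, 33.7, 30.0 and 27.1 CPM in the controls and 37.5, 38.2, 35.7 and 38.4 CPM in the treated samples (log2 fold change 0.29, edgeR adjusted p = 0.0730). Aurkb, the kinase of the chromosomal passenger complex, was at 16.6, 15.7, 15.2 and 16.3 CPM against 18.8, 18.1, 20.3 and 20.4 CPM (0.28, edgeR adjusted p = 0.0773). Kif23, a kinesin of the central spindle, was at 35.03, 33.1, 30.4 and 28.8 CPM against 41.0, 37.2, 36.7 and 39.5 CPM (0.28, edgeR adjusted p = 0.0838). In each of these genes the highest control stayed below the lowest treated sample. Ccnb2, cyclin B2, was at 25.8, 24.6, 22.8 and 25.6 CPM against 25.9, 30.1, 27.0 and 31.4 CPM, a log2 fold change of 0.21 with an edgeR adjusted p of 0.179. Its groups touched, since Z1C2Z-1 was barely above control-1.

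The common proliferation markers Mki67 and Top2a overlapped between groups. Mki67, the source of the Ki-67 antigen, was at 199, 270, 202 and 173 CPM in the controls and 313, 248, 261 and 292 CPM in the treated samples. Control-2 was above Z1C2Z-2 and Z1C2Z-4, and the log2 fold change of 0.40 ± 0.14, the second largest of the list, had an edgeR adjusted p of 0.111. Top2a, the topoisomerase that untangles chromosomes, was at 205, 214, 185 and 172 CPM against 243, 217, 202 and 240 CPM (0.22, edgeR adjusted p = 0.203). Ccnb1 was at 45.9, 54.1, 37.9 and 38.5 CPM against 54.0, 56.3, 46.3 and 56.5 CPM (0.27, edgeR adjusted p = 0.208). For Ccnb1 too, control-2 was above Z1C2Z-4 and level with Z1C2Z-1.

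Cdk1, the kinase that drives mitosis, was the exception to the direction of the list. It was at 44.5, 41.2, 36.8 and 44.1 CPM in the controls and 36.7, 44.6, 40.4 and 37.2 CPM in the treated samples. The groups covered the same range, the log2 fold change was −0.07 with a 95% interval of −0.29 to 0.16, and it turned to 0.02 when control-1 and control-5 were both left out. Cyclin A2 (Ccna2), Plk1 and Aurka, which act at the entry to mitosis, lay at 0.12, 0.13 and 0.18, and the mitotic transcription factor Foxm1 at 0.04. The kinetochore genes Cenpe and Cenpf lay at 0.36 and 0.34 and the spindle motor Kif11 at 0.26, all with overlap. Kif20a and Cdc20 were both at 0.25, Bub1 at 0.16, and the centromeric histone gene Cenpa and the passenger complex gene Birc5 at 0.13 each. Tpx2, which assembles spindle microtubules, was at 0.09 and Ube2c, a ubiquitin-conjugating enzyme of the anaphase-promoting complex, at 0.06.

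**Figure D2:**
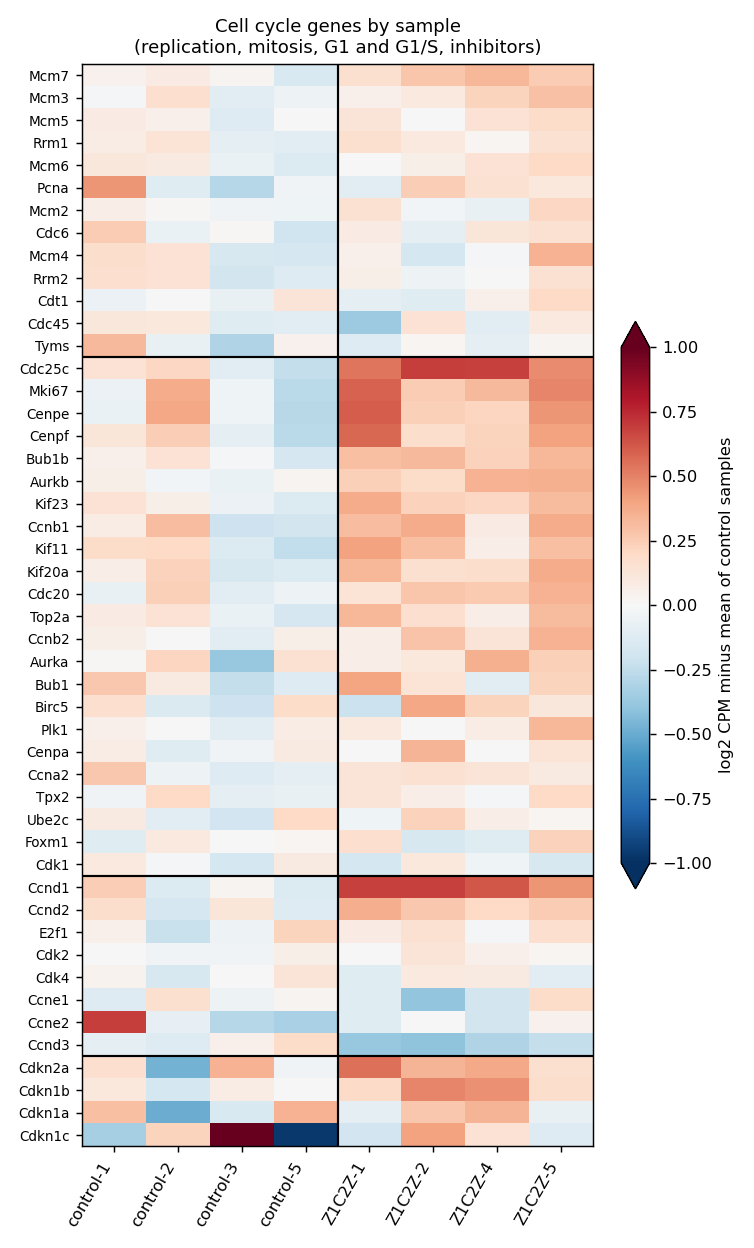
Log2 CPM of each of the 48 genes minus its mean over the 4 controls (colour, log2 scale, ends at −1 and 1), with the 8 samples as columns and the genes as rows in the order replication, mitosis, G1 and G1/S, and inhibitors. In the mitosis block the lowest values sit in control-3 and control-5 for 19 of 23 genes and the highest value sits in a treated sample for 22 of 23.

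Averaged over the list, the mitosis genes separated the groups, but single genes differed in the order of the samples within a group. The mean log2 CPM of the 23 was 5.08, 5.13, 4.89 and 4.94 in the controls and 5.24, 5.23, 5.17 and 5.28 in the treated samples. The group means were 5.01 ± 0.112 (SD, n = 4) in the controls and 5.23 ± 0.0487 in the treated samples. Z1C2Z-1 or Z1C2Z-5 held the highest value of 16 of the 23 genes and Z1C2Z-2 or Z1C2Z-4 that of 6, while control-3 or control-5 held the lowest value of 19. The controls spanned 4.89 to 5.13, a wider spread than the gap up to the lowest treated sample at 5.17. The separation depended on the measure. The summed CPM of the 23 genes overlapped, at 969 to 1198 in the controls and 1180 to 1333 in the treated samples.

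The replication genes were also lowest in control-3 and control-5 but did not separate the groups. Averaged over the 13 genes, log2 CPM came to 5.31 ± 0.116 (SD, n = 4) for control and 5.39 ± 0.0757 for Z1C2Z samples, with overlap, since control-1 at 5.45 was above all treated samples but Z1C2Z-5 at 5.50. Taken within each sample, the mean of the mitosis genes minus that of the replication genes was −0.30 ± 0.0522 log2 units in the controls and −0.16 ± 0.0673 in the treated samples, and the groups did not overlap. The same difference between the wider lists of 35 other mitosis genes and 28 other replication genes (described below) was 0.78 ± 0.0548 and 0.79 ± 0.0530, with overlap. A larger gap between mitosis and replication genes in the treated samples was thus seen among the 48 genes and not in the wider lists.

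**Figure D3:**
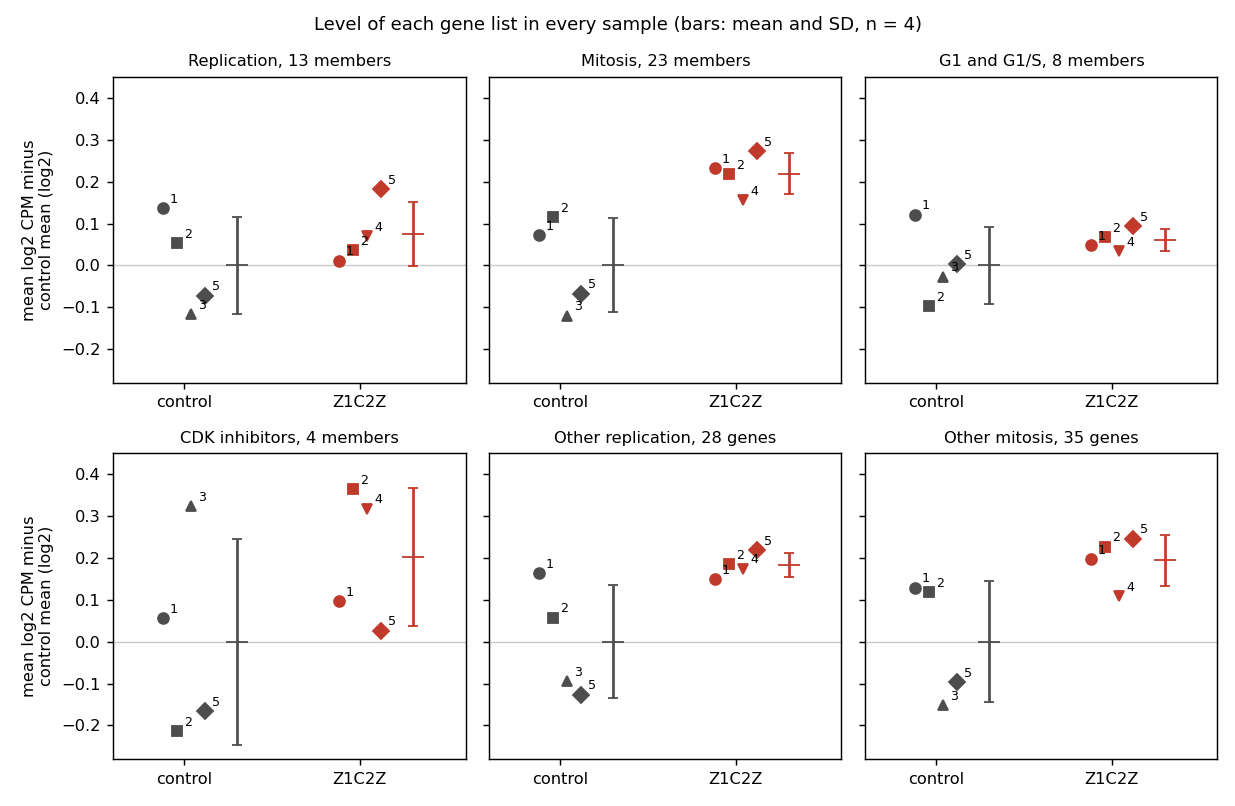
Mean log2 CPM of each list minus its mean over the controls (vertical axis, log2 units) in every sample, for the 4 lists of members and the 2 wider lists of replication and mitosis genes, where numbers are sample numbers and bars the mean and SD (n = 4). Among the lists shown, the mitosis members alone separate the groups by this measure, though not by summed CPM. Control-1 and control-2 lie above control-3 and control-5 in all lists of replication and mitosis genes.

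The D cyclins, which couple growth signals to G1, lay in both directions. Ccnd1 was at 144, 110, 123 and 110 CPM in the controls and 194, 194, 186 and 164 CPM in the treated samples. The groups did not overlap, and Ccnd1 rose 1.52-fold with a log2 fold change of 0.60 ± 0.11 (SE, n = 4 and 4, edgeR adjusted p = 0.0300), the largest of the 48. Its adjusted p was 0.0597 without control-2, 0.0778 without control-5, 0.0670 without Z1C2Z-1, 0.0888 without Z1C2Z-2 and 0.0876 without Z1C2Z-4, and 5.74e-05 with DESeq2. Its log2 fold change stayed between 0.56 and 0.69 in all of the 15 alternatives.

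Ccnd2 was at 257, 202, 247 and 207 CPM in the controls and 292, 273, 261 and 270 CPM in the treated samples, a log2 fold change of 0.27 with an edgeR adjusted p of 0.130. Ccnd3 lay the other way, at 48.4, 47.4, 53.7 and 59.1 CPM in the controls and 40.0, 39.4, 42.2 and 44.0 CPM in the treated samples. All 4 treated samples were below all controls, the log2 fold change was −0.33 ± 0.09, and edgeR's adjusted p was 0.0592, against 0.0140 with DESeq2. The ratio of Ccnd1 to Ccnd3 CPM in a sample was 2.36 ± 0.457 (SD, n = 4) in the controls, from 1.86 to 2.97, and 4.48 ± 0.551 in the treated samples, from 3.73 to 4.94. Because Ccnd1 and Ccnd3 each separated the groups, in opposite directions, this ratio had to separate them and adds no further evidence. The ratio of Ccnd1 to Ccnd2 was 0.534 ± 0.0265 and 0.674 ± 0.0490, also without overlap. These ratios do not depend on the scaling of the libraries. The CPM of all D cyclins together came to 402 ± 41.4 in the controls and 500 ± 21.2 in the treated samples.

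The other genes of G1 and the G1/S transition overlapped between groups. Cdk4, the kinase partner of the D cyclins, was at 118, 103, 116 and 126 CPM in the controls and 106, 123, 123 and 106 CPM in the treated samples, with a 95% interval of the log2 fold change from −0.23 to 0.20. Neither group was higher. Cdk2 was at 0.05, E2f1 at 0.09, and the E cyclins Ccne1 and Ccne2 at −0.12 and −0.13. Of the 8 genes in this list, 4 had a log2 fold change over 0 and 4 under 0, with a median of 0.02 that changed sign in some alternatives. The mean log2 CPM of the 8 overlapped between groups. Their summed CPM did not, at 549 to 678 in the controls and 679 to 724 in the treated samples.

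**Figure D4:**
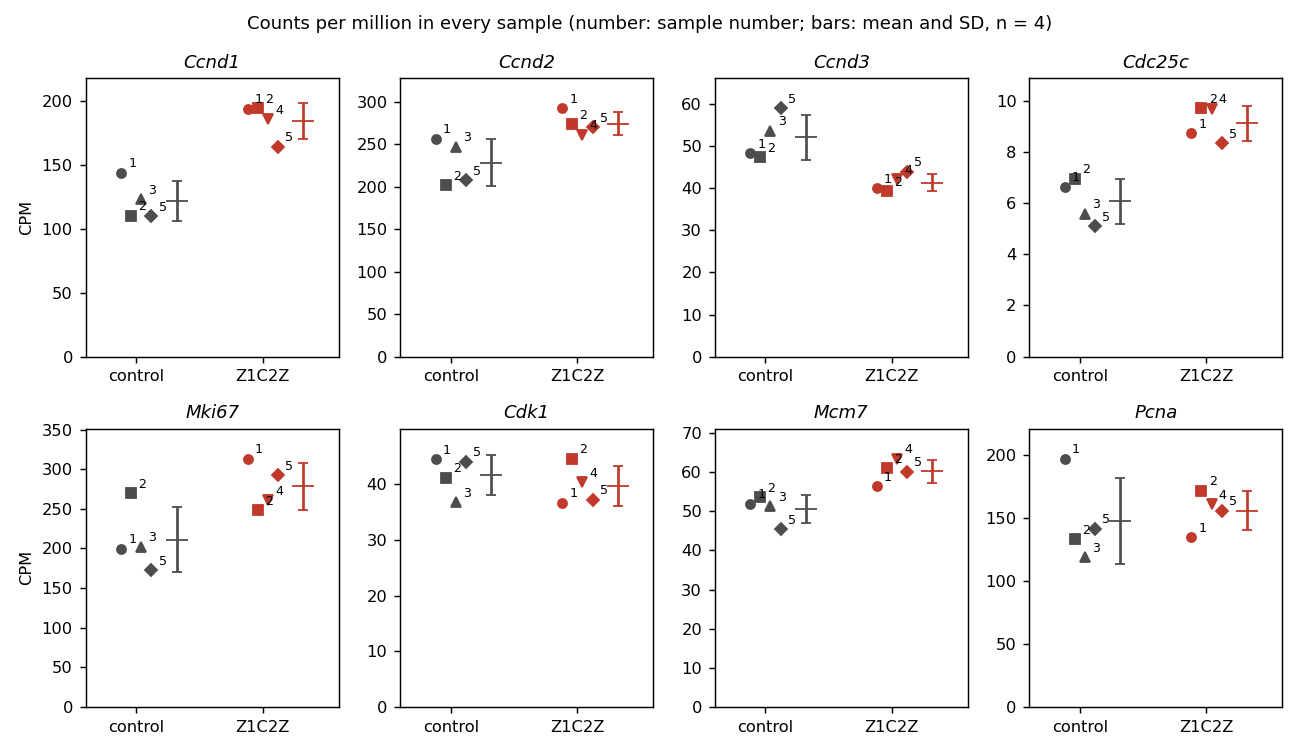
CPM (vertical axes, from 0) in every sample for Ccnd1, Ccnd2, Ccnd3, Cdc25c, Mki67, Cdk1, Mcm7 and Pcna, where numbers are sample numbers and bars the mean and SD (n = 4). All treated samples lie above all controls for Ccnd1, Ccnd2, Cdc25c and Mcm7 and below them for Ccnd3, while Mki67, Cdk1 and Pcna overlap.

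Of the CDK inhibitors, Cdkn1b (p27, which binds cyclin complexes of G1) was the one that separated the groups. It was at 98.8, 81.1, 96.5 and 91.3 CPM in the controls and 105, 129, 126 and 104 CPM in the treated samples, and the log2 fold change of 0.33 ± 0.11 had an edgeR adjusted p of 0.0848. Z1C2Z-2 and Z1C2Z-4 were its highest samples, where the mitosis genes had their 2 lowest levels among the treated. Cdkn1a (p21, a target of p53) was at 200, 114, 146 and 206 CPM against 152, 195, 205 and 153 CPM, and the treated samples lay within the range of the controls. Cdkn1c (p57) varied most, at 48.3, 70.9, 128 and 31.1 CPM in the controls and 53.1, 80.5, 67.2 and 55.5 CPM in the treated samples. Its 95% interval ran from −0.96 to 0.72 on the log2 scale. Cdkn2a (p16 and p19Arf) was near the limit of detection, with 9 to 18 counts per library. It was at 0.391, 0.2498, 0.441 and 0.338 CPM in the controls and 0.508, 0.440, 0.452 and 0.388 CPM in the treated samples, which overlapped.

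A wider set of cell cycle genes was read for comparison. Of 35 other mitosis genes, 33 had a log2 fold change over 0 (94.3%), with a median of 0.19, and 8 had no overlap (22.9%, against 8.45% of all genes). After adjustment 1 passed (2.86%, against 4.28% of all genes), Nek2, a kinase of the centrosome, at 14.6, 13.7, 11.8 and 12.6 CPM in the controls and 17.5, 20.1, 16.4 and 18.4 CPM in the treated samples (log2 fold change 0.46, edgeR adjusted p = 0.0407). Of 28 other replication genes, 25 had a log2 fold change over 0 (89.3%), with a median of 0.18, and 0 passed edgeR's test (4 at an unadjusted p under 0.05, or 14.3%, against 12.8% of all genes). The smallest p belonged to Rpa2, a subunit of the protein that coats single-stranded DNA (0.28, edgeR adjusted p = 0.0807), and Uhrf1, which keeps DNA methylation through replication (0.32, edgeR adjusted p = 0.0959).

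Of 27 other genes of G1, the RB and E2F families and the checkpoints, 15 had a log2 fold change over 0 (55.6%) and the median was 0.04. In this list 3 transcription factor genes rose (11.1%, against 4.28% of all genes) and 1 kinase gene fell (3.70%, against 3.85%). E2f2, an E2F activator, was at 12.6, 14.5, 16.5 and 10.03 CPM in the controls and 29.2, 32.3, 30.7 and 22.3 CPM in the treated samples (log2 fold change 1.09, edgeR adjusted p = 0.0299). The Myc family genes Mycl and Mycn rose by 1.28 (edgeR adjusted p = 0.0280) and 1.13 (edgeR adjusted p = 0.0437) on the log2 scale. Mycl went from between 15.3 and 22.95 CPM in the controls to between 34.99 and 54.5 CPM. Wee1, the kinase that holds Cdk1 inactive, was at 60.9, 50.1, 74.5 and 65.7 CPM in the controls and 43.4, 36.2, 43.5 and 40.2 CPM in the treated samples, and fell by 0.62 on the log2 scale (edgeR adjusted p = 0.0306). Of 3 other inhibitors 1 passed (33.3%, against 4.28% of all genes). Cdkn2b (p15, an inhibitor of Cdk4 and Cdk6) rose from between 5.63 and 7.05 CPM to between 9.15 and 11.4 CPM (0.67, edgeR adjusted p = 0.0303). Cdkn2c was at 0.34 (edgeR adjusted p = 0.0773) and Cdkn2d at −0.25 (edgeR adjusted p = 0.263). With each of the 8 samples left out in turn, edgeR's adjusted p stayed under 0.05 in 1 fit for Nek2 and 2 for Mycn. It did so in 3 fits for E2f2 and Cdkn2b, and in 4 for Mycl and Wee1.

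Markers of hair follicle cells moved with the groups. All 10 markers of the hair matrix and shaft (Msx2, Hoxc13, Lef1, Dlx3, Krt25, Krt27, Krt31, Krt35, Krt71 and Krt85) passed the test and were higher with Z1C2Z, with a median log2 fold change of 2.46. Of all genes tested, 4.28% were called higher, and the markers were chosen with earlier results of these data known. The summed level of the 10 markers was 442 to 2209 CPM in the controls and 2711 to 9826 CPM in the treated samples, and none was at 0 counts. On the scale of mean log2 CPM the 10 together were at 4.58, 5.64, 6.37 and 4.41 in the controls and 7.67, 8.53, 8.35 and 6.72 in the treated samples. The order of the samples within the groups was not that of the mitosis genes. Z1C2Z-5 had the lowest hair marker level of the treated samples and the highest mitosis level, and control-3 had the highest hair marker level of the controls and the lowest mitosis level. Ccnd1, Cdc25c, E2f2, Mycl, Mycn and Cdkn2b were lowest among the treated samples in Z1C2Z-5, as the hair markers were, and Nek2 in Z1C2Z-4. Among the controls, E2f2 and Cdkn2b were highest in control-3, as the hair markers were. Ccnd1, Mycl, Mycn and Nek2 were highest in control-1, and Cdc25c in control-2. Wee1, which fell, was lowest among the treated samples in Z1C2Z-2, where the hair markers were highest. Among the controls Wee1 was highest in control-3, as the hair markers were. The part of the hair follicle cells in the differences above was not tested.

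**Figure D5:**
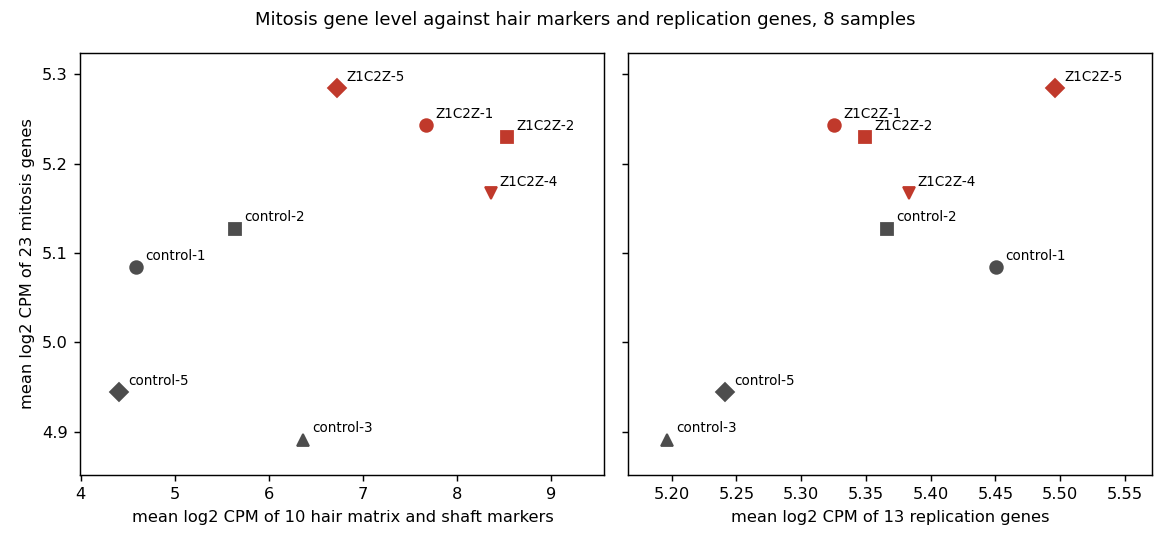
Mean log2 CPM of the 23 mitosis genes (vertical axis) against that of 10 hair matrix and shaft markers (left) and of the 13 replication genes (right), with 1 point per sample in dark grey for control and red for Z1C2Z. Both measures of the left panel separate the groups, but Z1C2Z-5, with the highest mitosis level (5.28), has the lowest hair marker level of the treated samples (6.72), and in the right panel the replication levels overlap.

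Few markers of other cell types passed the test. All 5 fibroblast markers, all 7 of macrophages and neutrophils, all 4 of endothelium, all 6 of skeletal muscle, all 4 of erythroid cells and all 3 of adipocytes had log2 fold changes under 0, with medians from −0.37 to −1.10. Among them Dcn (1 of 5 fibroblast), Acta1 (1 of 6 muscle), and Hbb-bt and Alas2 (2 of 4 erythroid) passed the test, against 3.85% of all genes called lower. More were lower at an unadjusted edgeR p under 0.05, against 15.2% of all genes. These were 5 of 5 fibroblast, 4 of 4 erythroid and 3 of 3 adipocyte markers. In the same direction were 3 of 6 muscle, 2 of 4 endothelium and 2 of 7 macrophage and neutrophil markers. Averaged over its genes as mean log2 CPM, each of these lists overlapped between groups except the erythroid one, which was lower in all treated samples. By summed CPM the erythroid list overlapped, at 191 to 352 in the controls and 78.0 to 204 in the treated samples. By that measure the muscle list did not overlap, at 2171 to 4377 CPM in the controls and 1824 to 2153 CPM in the treated samples. Basal keratinocyte markers were over 0 in 3 of 6 and under 0 in 3, suprabasal markers over 0 in 5 of 5 and markers of wound keratinocytes under 0 in 3 of 4, and none passed. Of the lymphocyte markers 4 of 6 could be tested and 0 passed with edgeR, with 1 at an unadjusted p under 0.05 (Cd8a, 1.39). The part of these cell types in the levels of the cell cycle genes was not tested.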

How the data were processed

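RNA from mouse wound skin (4 control and 4 Z1C2Z samples) was depleted of ribosomal RNA, primed at random and made into strand-marked libraries per the labels. The labels name Trizol and the study's methods a column kit for extraction. The authors deposited raw read counts per gene for 18540 genes, without normalization. The aligner, counter, genome build, annotation and strand setting are not given in the sources used here, so overlapping and antisense genes could not be told apart. The table held 0 unused columns of per-sample values.

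The test ran in edgeR 4.0.16 (R 4.3.3, limma 3.58.1): filterByExpr by group kept 15147 genes, followed by TMM scaling, glmQLFit and glmQLFTest without covariates, and Benjamini-Hochberg adjustment over all genes tested, with a threshold of 0.05. Log2 CPM used a prior count of 2. Standard errors were derived from the F statistic. Single genes also had an exact two-sided permutation test over 70 arrangements. The steps were tested on simulated data. Libraries held 28856790 to 38974888 counts, and the SD between samples includes counting error, which weighs most for low genes such as Cdkn2a.

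Alternatives were DESeq2 1.42.0, RLE size factors, no filter on low counts, a minimum of 10 counts in all samples, a block for the sample number, each sample left out in turn, and 2 pairs of samples left out. Values in every sample are given for genes that passed, genes without overlap and 15 named regulators, with the largest other differences per list. Of the wider lists, the genes that passed are named, or else those with the smallest p. The 48 genes, the wider lists, the markers and the motifs were chosen with earlier results of these data known. Promoter windows were taken from RefSeq (GRCm38.p6), matched by symbol, and their coordinates are not those of the count table.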

Additional observations from a re-analysis of the deposited data

Results flagged for a closer look

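For each of the 48 genes, each group of 4 was checked for a sample far from the other 3 by Dixon's ratio, the gap to the nearest sample over the range of the group. Of 96 groups, 1 stood out, where chance gives about 1 in 20. Tpx2, the spindle assembly factor, was at 52.9 CPM in control-2 and between 43.5 and 44.9 CPM in the other controls, a ratio of 0.834, just above the critical value for 4 samples at the 95% level. Control-2 was also the highest control for Mki67 and Ccnb1.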

How the results depend on the processing

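The direction of the mitosis and the replication list held and the number of genes that passed did not. The median log2 fold change stayed over 0 in all of the 15 alternatives for the mitosis, replication and inhibitor lists. With 1 sample left out it was 0.18 to 0.27, 0.03 to 0.12 and 0.07 to 0.36 (the inhibitors, 0.21 with all samples, were at 0.07 without control-2 and 0.36 without control-3). The count of the 48 genes called higher was 7 with DESeq2 in place of 2 (and 1 in place of 0 lower), 0 with the sample number as a replicate block, 0 without Z1C2Z-2 and Z1C2Z-4, 0 without control-1 and control-5, and 0 to 2 when 1 sample was left out (1 without control-3, and 0 without control-2 or control-5 or any of the treated samples 1, 2 and 4). Genes of the 48 higher at an unadjusted edgeR p under 0.05 numbered 2, 10 and 10 in the block and the 2 pairs left out, in that order, and genes lower 0, 1 and 2. The share of all genes at that threshold was not taken in these fits, so these counts have no background beside them. After adjustment, the whole table held 301, 0 and 4 higher and 253, 0 and 9 lower genes in the same fits. The block left fewer residual degrees of freedom and leaving out samples left fewer samples. Whether the numbers pair the samples could not be told. Deviations from the group means correlated at −0.10, −0.06 and 0.32 for numbers 1, 2 and 5. For unlike numbers they correlated at −0.41 to 0.39, and so few shared numbers cannot decide it.

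The G1 median of 0.0168 was −0.00494 with the block, −0.0213 to 0.0717 with 1 sample left out and 0.0917 without control-1 and control-5. Some genes that did not pass changed sign. With the block, Cdt1 was −0.0267, Pcna −0.0149, Rrm2 −0.00676, Cdkn1a −0.0197 and Cdkn1c 0.384. Without Z1C2Z-2 and Z1C2Z-4, Pcna was −0.0254, Birc5 −0.0528, Ube2c −0.0219, Ccne1 0.0342 and Cdkn1a −0.123. Without control-1 and control-5, Tyms was 0.133, Cdk1 0.021, Foxm1 −0.0174, Ccne2 0.110 and Cdk4 0.0595. With 1 sample left out, the ranges were −0.0539 to 0.0614 for Cdt1, −0.113 to 0.0548 for Cdc45, −0.0531 to 0.131 for Mcm4, −0.00923 to 0.242 for Pcna, −0.0181 to 0.0869 for Rrm2, −0.145 to 0.0552 for Tyms, −0.0345 to 0.0982 for Foxm1, −0.228 to 0.158 for Ccne2, −0.0651 to 0.0334 for Cdk4, −0.0572 to 0.209 for Cdkn1a and −0.365 to 0.358 for Cdkn1c. Apart from the block and the samples left out, the cause of the changes was not tested.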
